A study of Mus musculus with 4 samples.

Results

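Cytokine signals are held in check inside the cell by suppressor of cytokine signalling (SOCS) proteins and by a few tyrosine phosphatases. The genes described here are 7 members of the SOCS family (Socs1, Socs2, Socs3, Socs4, Socs5, Socs6 and Cish) and 3 phosphatases (Ptpn2, Ptpn6 and Ptpn11). They were chosen by gene name, and each of the 10 names matched 1 of the 21899 rows of the deposited table of protein-coding genes. All 10 had a mean of at least 1 FPKM and entered the test with 12345 rows in all. FPKM is a level scaled to the fragments of the library and already divided by transcript length, so levels of different genes can be set side by side.

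The tissue was subcutaneous white fat of mice, and the RNA was sequenced in 4 libraries. A group labelled miR-203 inhibitor and a group labelled negative control had 2 libraries each, and every library was made from the combined RNA of 3 animals. The 2 libraries of a group are therefore separate pools. The p-values set each difference against the spread between pools, which the test shares in part over genes. The sources used here give no strain, sex, age, genotype, dose, route or duration, and nothing on the chemistry of the inhibitor or of the control agent. MicroRNAs such as miR-203 repress messenger RNAs that carry matches to their seed, and the series title names a network of cyclic AMP, this microRNA and interferon gamma. The level of miR-203 was not analysed here.

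Interferons, interleukins and growth hormone bind receptors that carry Janus kinases (JAKs). The kinases phosphorylate STAT proteins, which enter the nucleus and switch on target genes. Among those targets are SOCS genes themselves, which closes a negative feedback loop: the SOCS protein binds phosphorylated tyrosines through an SH2 domain and recruits a ubiquitin ligase through its SOCS box, and SOCS1 and SOCS3 also block the kinase directly. The phosphatases remove phosphate groups. SHP-1, encoded by Ptpn6, is found mainly in blood cells. SHP-2, encoded by Ptpn11, is found in most cells and also carries growth factor signals forward. TC-PTP, encoded by Ptpn2, acts on JAK1 and JAK3.

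The inhibitor is directed at miR-203, so the seed and its matches in the SOCS transcripts are shown before the values. Mature sequences come from RefSeq (GRCm38.p6). The labels do not say which arm of the hairpin the inhibitor pairs with, and the 3' arm was searched. It lies at chr12:112130927-112130948 on the plus strand, and its seed, bases 2 to 8, is in capitals.
miR-203-3p: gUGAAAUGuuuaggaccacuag

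A full match to this seed in a messenger RNA reads CATTTCA, called a 7mer-m8, and becomes an 8mer when an A follows it, CATTTCAA. A 7mer-A1 lacks the first base of the 8mer. Where a gene had several annotated 3' untranslated regions (GENCODE M21, GRCm38), the longest was searched. At least 1 match of 7 or 8 bases was found in 6 of the 10 genes, against 24.4% of 12237 tested genes with such a region. The median length of the region was 2120.5 bases in the 10 genes and 1144 bases in all, and longer regions hold more matches by length alone. The windows below, from GENCODE transcripts, show the match in capitals.
Socs1 (7mer-m8, chr16:10783301-10783325, minus strand): ctgcaagccatcaagCATTTCAgag
Socs2 (8mer, chr10:95411885-95411909, minus strand): ccttacttcagacaCATTTCAAact
Socs3 (7mer-m8, chr11:117966120-117966144, minus strand): tactcagaaaagaaaCATTTCAgta
Socs4 (7mer-A1, chr14:47291137-47291161, plus strand): ccaggcatatttacaATTTCAAggc
Socs5 (7mer-A1, chr17:87135511-87135535, plus strand): taatattggatgggtATTTCAAtag

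Socs6 carried 2 matches of the 7mer-m8 kind in a region of 4019 bases. Cish, Ptpn2, Ptpn6 and Ptpn11 had no match of 7 or 8 bases in this region. Socs2 was the single member with an 8mer, a kind found in 4.92% of the tested genes. Its match began 758 bases into a region of 1163 bases. The match in Socs3 lay 44 bases before the end of its region, and that in Socs1 was near the middle of its own. A match is a description of the letters and not a measured site.

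**Figure D1:**
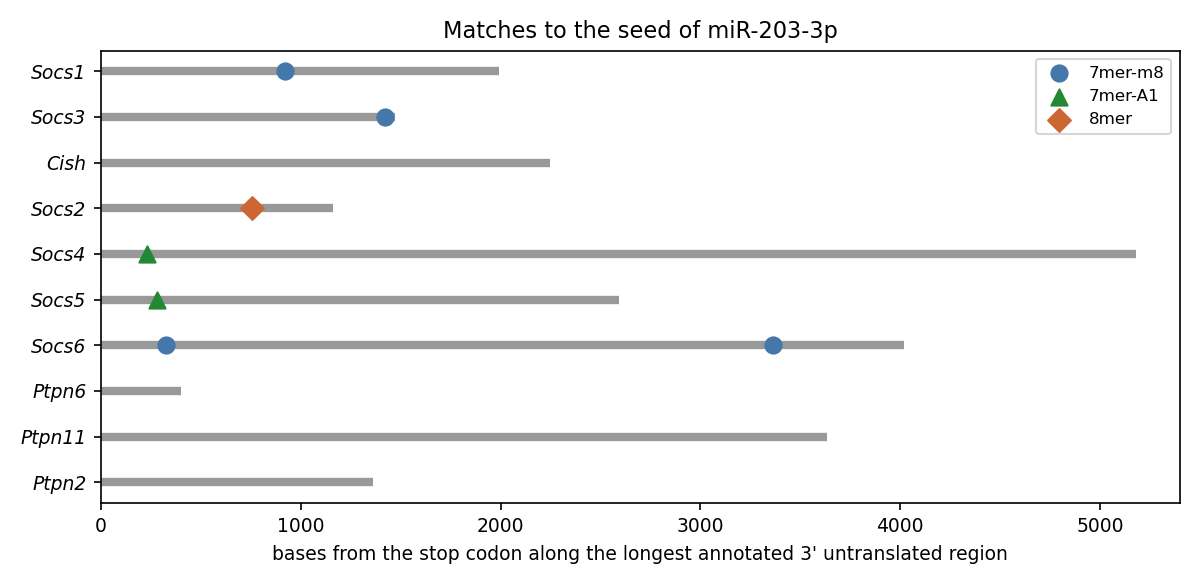
Grey bars give the searched 3' untranslated regions in bases from the stop codon, and symbols mark matches to the miR-203-3p seed by kind. Socs2 holds the 8mer, and Cish, Ptpn6, Ptpn11 and Ptpn2 hold no match of 7 or 8 bases.

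The comparison of inhibitor with control libraries gave 1 gene that rose among the 10. Socs1, a feedback inhibitor of interferon signalling, was 3.60-fold higher in the inhibitor libraries. Socs3, Ptpn6 and Ptpn2 were 1.84-fold, 1.57-fold and 1.43-fold higher in mean FPKM with groups that did not overlap, but did not pass the test across all genes. The other 6 had mean ratios between 0.878 and 1.19. Counted with limma at an adjusted p under 0.05, 1 of 10 rose and 0 fell, against 3.48% of all genes tested called in either direction and 3.22% called higher (397 higher and 33 lower). At an unadjusted p under 0.05, limma gave 4 of the 10 and 19.3% of all genes. The median log2 fold change of the 10 was 0.15, against 0.07 over all genes tested. With quantile normalization these medians were 0.042 and -0.03, and with upper quartile scaling 0.045 and -0.04. Fold changes on the log2 scale are of FPKM + 1, which understates changes of low genes.

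Both inhibitor values lay above both control values for 5 members (Socs1, Socs3, Socs4, Ptpn2 and Ptpn6), an arrangement seen in 33.1% of all genes tested. Both lay below for Socs6 and Ptpn11, an arrangement seen in 19.1%. Socs2, Socs5 and Cish overlapped. With upper quartile scaling, which moved the median log2 fold change of all genes from 0.07 to -0.04, the values of Socs4 overlapped and those of Socs5 lay lower in the inhibitor libraries. The members then stood at 4 higher and 3 lower, and the shares over all genes turned round, to 21.4% higher and 30.9% lower. The number of higher and lower calls over all genes became 288 and 72 with that scaling, and 326 and 92 with quantile normalization.

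**Figure D2:**
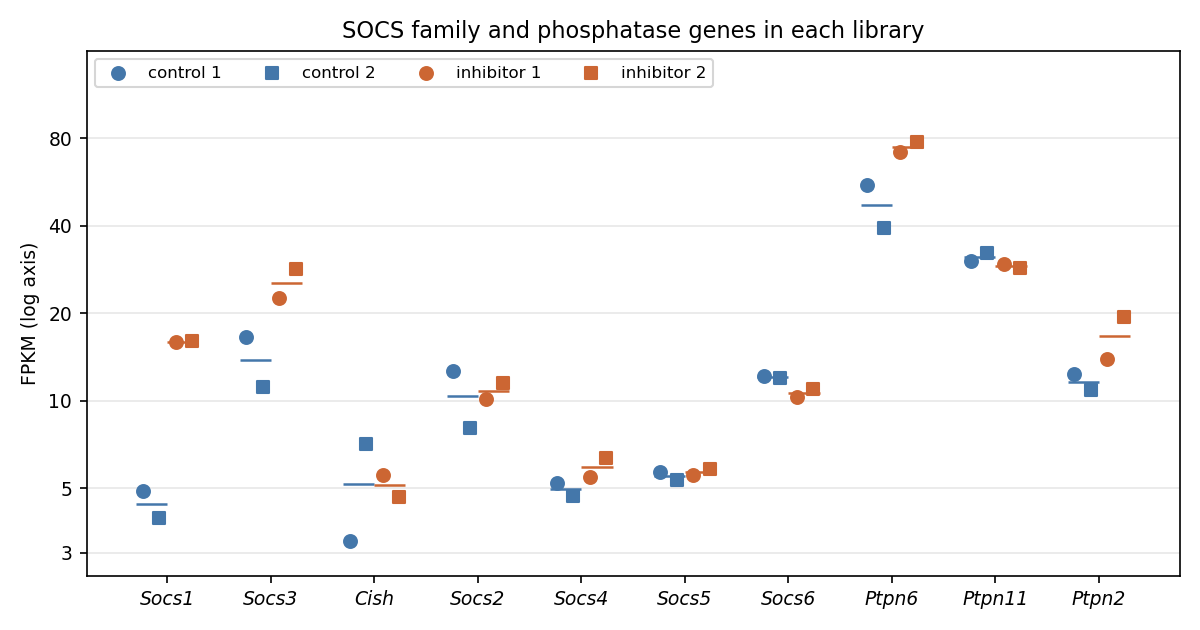
Points are the FPKM of each gene in each library on a log axis, and short lines are group means of 2 libraries. Socs1 went from 3.96 and 4.88 FPKM in the controls to 15.9 and 16.0 in the inhibitor libraries, and Ptpn6 was the highest of the genes in all 4 libraries.

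Socs1 (ENSMUSG00000038037, chr16:10782240-10785536, minus strand) is the feedback inhibitor best known for ending interferon signals, through JAK1 and JAK2. It had 4.88 FPKM in control 1, 3.96 in control 2, 15.9 in inhibitor 1 and 16.0 in inhibitor 2. Both inhibitor libraries were far above both controls and nearly equal to each other. The group means were 4.42 ± 0.652 and 15.9 ± 0.118 FPKM (SD, n = 2 pools), and the log2 fold change was 1.65 ± 0.14 (SE, limma adjusted p = 0.00991). Among the 10 genes ordered by level, Socs1 stood at place 9 in control 1 and place 10 in control 2, and at places 4 and 5 in inhibitor 1 and inhibitor 2. The log2 fold change was 1.64 to 1.66 without either inhibitor library. The adjusted p was then 0.126 without inhibitor 1 and 0.178 without inhibitor 2, fits in which no gene of the table passed and in which the lone inhibitor library is assumed to vary like the controls.

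Socs3 (ENSMUSG00000053113, chr11:117966079-117970047, minus strand) is the feedback inhibitor of receptors that use gp130, such as that for interleukin 6, and of the leptin receptor. It had 16.6 FPKM in control 1, 11.1 in control 2, 22.6 in inhibitor 1 and 28.4 in inhibitor 2. The groups did not overlap, although the pools within each group differed by several FPKM. The log2 fold change was 0.85 ± 0.22 (SE, limma adjusted p = 0.120, 95% interval 0.30 to 1.40). Without control 1 it was 1.12 with an adjusted p of 0.0263, and without control 2 it was 0.58 with an adjusted p of 0.177, so the call turned on which control was kept.

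Cish and Socs2 are the members most tied to STAT5, the transducer used by growth hormone, prolactin and interleukin 2. Cish (ENSMUSG00000032578, chr9:107296026-107302784, plus strand) had 3.28 FPKM in control 1, 7.07 in control 2, 5.54 in inhibitor 1 and 4.67 in inhibitor 2. Both inhibitor values fell between the controls, which differed from each other more than the groups did. Socs2 (ENSMUSG00000020027, chr10:95385362-95417180, minus strand), whose product restrains growth hormone signalling, had 12.7 FPKM in control 1, 8.04 in control 2, 10.1 in inhibitor 1 and 11.5 in inhibitor 2. Its inhibitor values also lay between the controls, but here control 1 was the higher control. The mean FPKM ratio of Cish was 0.987 while its log2 fold change was 0.05, so its sign depended on the scale. The 95% intervals of the log2 difference ran from -0.76 to 0.86 for Cish and from -0.48 to 0.65 for Socs2 (limma adjusted p = 0.946 and 0.870). A change of up to about these sizes could not be told from none. Cish overlaps an antisense gene by 1459 bases, and although the library kit was directional, no source used here states whether fragments were assigned by strand, so the reads of such pairs cannot be told apart.

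Socs4, Socs5 and Socs6 belong, with Socs7, to the longer, less studied branch of the family. SOCS4 and SOCS5 are linked to the epidermal growth factor receptor, and SOCS6 to insulin receptor and KIT signalling. Socs5 (chr17:87107679-87137839, plus strand) varied little, with 5.67 and 5.33 FPKM in control 1 and control 2 and 5.56 and 5.83 in inhibitor 1 and inhibitor 2. Its 95% interval on the log2 scale was -0.31 to 0.39, and its groups overlapped. Socs4 (chr14:47276931-47296102, plus strand) had 5.23 and 4.69 FPKM in control 1 and control 2 against 5.47 and 6.36 in the inhibitor libraries, and inhibitor 1 was just above control 1. The log2 fold change of Socs4 was 0.21 ± 0.15 (SE, limma adjusted p = 0.504). Socs6 (chromosome 18, 88665224 to 88927481, minus strand) had 12.2 and 12.0 FPKM in the controls and 10.3 and 10.97 with the inhibitor. Its controls were nearly equal and both inhibitor values were lower, by a log2 of -0.17 ± 0.12 (SE, limma adjusted p = 0.473). Socs7, the family member outside the 10, had 2.81 and 2.89 FPKM in control 1 and control 2 against 2.67 and 3.36 in the inhibitor libraries, which overlapped.

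Ptpn6 (ENSMUSG00000004266, chr6:124720707-124738714, minus strand) had the highest level of the 10 in every library. It had 55.3 FPKM in control 1, 39.2 in control 2, 71.5 in inhibitor 1 and 77.4 in inhibitor 2. The inhibitor libraries were above both controls, and control 2 was well below control 1. The log2 fold change was 0.66 ± 0.17 (SE, limma adjusted p = 0.128, 95% interval 0.22 to 1.10). It was 0.91 with an adjusted p of 0.0135 without control 1, and 0.42 with an adjusted p of 0.144 without control 2. Thus 3 of the 10 genes, Socs1, Socs3 and Ptpn6, passed when control 1 was left out, a fit in which calls over all 12345 genes went from 430 to 785. An antisense gene shares 5873 bases with Ptpn6.

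The other phosphatases differed from it in pattern. Ptpn11 (ENSMUSG00000043733, chr5:121130533-121191397, minus strand) had 30.3 and 32.1 FPKM in the controls and 29.4 and 28.7 with the inhibitor. All 4 values lay close together with the inhibitor values just below the controls, and the log2 fold change was -0.10 ± 0.09 (SE, limma adjusted p = 0.616). Its 95% interval, -0.34 to 0.14, was the narrowest of the 10. Ptpn2 (ENSMUSG00000024539, chromosome 18, 67665511 to 67724595, minus strand) had 12.3 and 10.9 FPKM in control 1 and control 2 against 13.9 and 19.4 in the inhibitor libraries. Inhibitor 2 stood apart from the other 3 libraries, and inhibitor 1 was close to control 1. The log2 fold change of Ptpn2 was 0.47 ± 0.18 (SE, limma adjusted p = 0.252), and it was 0.25 without inhibitor 2 and 0.70 without inhibitor 1. Ptpn1, which encodes the closely related phosphatase PTP1B, a brake on insulin and leptin receptors, had 27.6 and 38.4 FPKM in the controls and 42.3 and 49.3 with the inhibitor (limma adjusted p = 0.241).

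**Figure D3:**
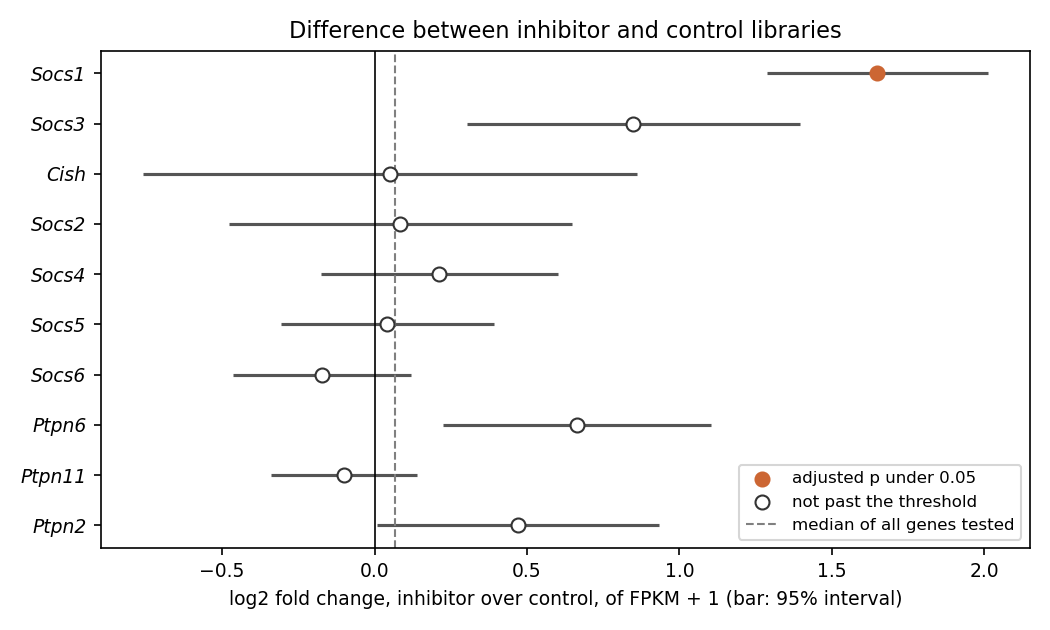
Points are log2 fold changes of FPKM + 1 from limma for each gene, inhibitor over control, and bars are 95% intervals. Socs1 at 1.65 is the filled point past the threshold, Socs3 and Ptpn6 follow at 0.85 and 0.66, and the dashed line is the median of all genes tested at 0.07.

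Ordered by mean level in the controls, the genes were Ptpn6, Ptpn11, Socs3, Socs6, Ptpn2, Socs2, Socs5, Cish, Socs4 and Socs1, from 47.3 down to 4.42 FPKM. Ptpn6 and Ptpn11 held places 1 and 2 in all 4 libraries and did not overlap each other or the rest. Socs3, Socs6, Ptpn2 and Socs2, with control means between 10.4 and 13.9 FPKM, overlapped as neighbours in the controls. Cish, with 3.28 and 7.07 FPKM, spanned the control values of Socs5, Socs4 and Socs1. In the inhibitor libraries Socs3 was at place 3, and Socs1 with 15.9 and 16.0 FPKM was above Socs2 and Socs6 in both.

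The genes whose pattern over the 4 libraries was most like that of Socs1, by Euclidean distance between centred log2 values, were Gbp2, Gbp5 and Ube2l6, at distances of 0.0569, 0.0889 and 0.157. With 4 libraries this measure describes little more than the step between the groups and the split within each. Gbp2 and Gbp5 encode guanylate-binding proteins and Ube2l6 the enzyme that loads ISG15. Gbp2 had 48.5 and 42.9 FPKM in control 1 and control 2 against 146.4 and 145.0 in the inhibitor libraries, a log2 fold change of 1.65 as for Socs1. Irf1, an interferon-induced transcription factor, had 56.2 and 49.1 FPKM in the controls and 79.2 and 99.8 with the inhibitor, which did not overlap (limma adjusted p = 0.0646).

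Promoter windows from RefSeq (GRCm38.p6, 300 bases each, mostly upstream of the start site) were at hand for 6 of the 10 genes: Socs1, Socs3, Socs4, Cish, Ptpn6 and Ptpn11. They were searched on both strands for TTCNNNGAA, the gamma-activated site to which STAT dimers bind, and for GAAANNGAA, the core of the interferon-stimulated response element read by IRF and STAT complexes. The first reads the same on both strands and was present in 8.30% of 32851 windows, and the second in 8.56%. The window of Socs1, the gene that rose, is shown with its matches in capitals.
Socs1 (chr16:10785487-10785786, minus strand): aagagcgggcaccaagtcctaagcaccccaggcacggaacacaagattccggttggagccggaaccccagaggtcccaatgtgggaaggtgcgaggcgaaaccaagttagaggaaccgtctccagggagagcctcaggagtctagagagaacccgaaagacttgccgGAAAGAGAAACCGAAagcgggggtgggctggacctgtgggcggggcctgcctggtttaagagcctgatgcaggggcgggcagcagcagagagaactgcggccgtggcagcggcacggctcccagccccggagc

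The capitals hold 2 overlapping matches to the response element core, GAAAGAGAA and GAAACCGAA, which start at -83 and -77 from the start site, and the window holds no gamma-activated site. Cish, whose values overlapped between groups, has the other motif.
Cish (chr9:107296409-107296708, plus strand): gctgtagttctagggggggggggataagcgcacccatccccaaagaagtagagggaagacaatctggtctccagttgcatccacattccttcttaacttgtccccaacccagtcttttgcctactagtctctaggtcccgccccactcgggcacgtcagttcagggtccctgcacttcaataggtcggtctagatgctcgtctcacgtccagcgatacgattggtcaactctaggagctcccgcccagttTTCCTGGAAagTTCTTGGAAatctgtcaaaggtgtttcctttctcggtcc

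Both capital stretches of Cish are gamma-activated sites, TTCCTGGAA and TTCTTGGAA, and 2 or more of them occur in 0.457% of all windows. They start at 0 and 11 from the start site, so they do not lie upstream of it. The Socs3 window held 1 such site, TTCTTAGAA, at -154 from its start site. The Cish and Socs3 matches lay inside the gene bounds given above, since the RefSeq start sites of these genes lie further in. The windows of Socs4, Ptpn6 and Ptpn11 held neither motif. These are matches of letters, and binding was not measured.

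The rest of the pathway was described from lists of genes by role, which were chosen with earlier results of these data known. The counts below that come from the main fit stand beside 3.22% of all genes tested called higher. The medians stand beside 0.07 over all genes tested. Of 26 cytokine receptor chains 4 rose and 0 fell, with a median log2 fold change of 0.32. They were Csf2ra, from 27.2 ± 1.13 to 50.1 ± 1.13 FPKM, Il10ra, from 16.6 to 33.6 FPKM, Il2rb, from 10.7 to 24.6 FPKM, and Il12rb1, from 1.16 to 3.42 FPKM, which are receptor chains for GM-CSF, interleukin 10, interleukin 2 and interleukin 12. With upper quartile scaling 2 of 26 passed, since Il2rb and Il12rb1 then had limma adjusted p-values of 0.0559 and 0.0591. Both also missed the threshold with no filter on low genes (0.119 and 0.0773) and with a replicate block (0.0567 and 0.0864). The same held with values rescaled without mitochondrially encoded genes (0.0532 for each). Il2rb was lost without a variance trend too (0.0875), and Il12rb1 with quantile normalization (0.0612). The control mean of Il12rb1 was close to the filter of 1 FPKM. Ifngr1, Ifngr2, Il6st (gp130) and Ghr, the growth hormone receptor, were named as examples of chains at which SOCS1, SOCS3 or SOCS2 act. They do not stand for all such chains in the list. None of them passed, with log2 fold changes of 0.15 ± 0.09, 0.34 ± 0.11, 0.08 ± 0.08 and -0.10 ± 0.10 (SE). Both inhibitor values lay above both controls for 18 of the 26 chains and below for 1. Over all genes tested these shares were 33.1% and 19.1%. Il6st was at 46.1 and 46.2 FPKM in the controls and 48.3 and 49.5 with the inhibitor, and its log2 value was -0.036 with quantile normalization.

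Among the kinases and transducers, Stat2, a transducer of type I interferon signals, rose from 21.0 ± 4.17 to 65.2 ± 7.89 FPKM (SD, n = 2), although its limma adjusted p was 0.0549 with no filter on low genes. Jak2 (log2 fold change 0.55, limma adjusted p = 0.0808), Stat3 (0.47, adjusted p = 0.117), Tyk2 (0.43, adjusted p = 0.202) and Jak1 (0.25, adjusted p = 0.345) did not pass. Stat5a and Stat5b, which drive Cish and Socs2, had log2 fold changes of -0.03 and 0.02.

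Targets of the STATs were counted in the same way. Of 13 STAT3 targets 2 rose and 0 fell, with a median of 0.50: Ccl2, a monocyte chemokine, from 46.8 ± 17.3 to 166.3 ± 24.4 FPKM, and Junb, an AP-1 subunit, from 31.3 to 57.8 FPKM. Neither passed with no filter (limma adjusted p = 0.0967 and 0.0848) or without a variance trend (0.0678 and 0.0778), settings in which 0 of 13 were called. Over all genes, these settings called 132 of 16558 and 226 of 12345. Of 10 STAT5 targets 2 rose and 0 fell, with a median of 0.36. These were Cdkn1a, a cell cycle inhibitor, from 36.5 ± 0.133 to 76.8 ± 2.87 FPKM, and Ccnd1, cyclin D1, from 10.8 to 23.0 FPKM, both of which have many regulators besides STAT5. Igf1, the growth factor made under growth hormone, had 57.9 and 71.7 FPKM in the controls and 66.3 in both inhibitor libraries, values that overlapped (limma adjusted p = 0.893).

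Of 12 other brakes on the pathway 2 rose and 0 fell, with a median of 0.34. Usp18, which blocks the type I interferon receptor and removes ISG15, was at 18.3 ± 2.28 FPKM in the controls and 84.0 ± 2.33 with the inhibitor (SD, n = 2), and its log2 fold change of 2.14 ± 0.12 (SE) was above that of Socs1. The difference between Usp18 and Socs1 was not tested. Ptprc, which encodes the phosphatase CD45 of white blood cells, rose from 50.5 ± 10.7 to 105.1 ± 9.31 FPKM, although its adjusted p, 0.0372, was 0.104 with no filter on low genes and 0.0872 without a variance trend. None of the 6 measured partners in the SOCS box ligase (Tceb1, Tceb2, Cul5, Rnf7, Rbx1 and Arih2) passed or had an unadjusted limma p under 0.05, and their median was 0.08. Of 19 docking partners of SHP-1 and SHP-2, 5 rose and 0 fell, with a median of 0.21. The 4 with the smallest p were the myeloid inhibitory receptors Lilrb4a (35.7 to 108.5 FPKM) and Pirb (48.0 to 88.3 FPKM), the B cell protein Cd72 (29.4 to 67.4 FPKM) and the CD47 receptor Sirpa (75.4 to 128.4 FPKM). The other was Cd300a, named after its values were seen. With no filter 2 of 19 passed, beside 132 of 16558 genes in all, with Cd72 and Sirpa at limma adjusted p-values of 0.0505 and 0.0510. Sirpa was also lost without a variance trend (adjusted p = 0.0648). Without either inhibitor library no gene in any of these lists passed.

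**Figure D4:**
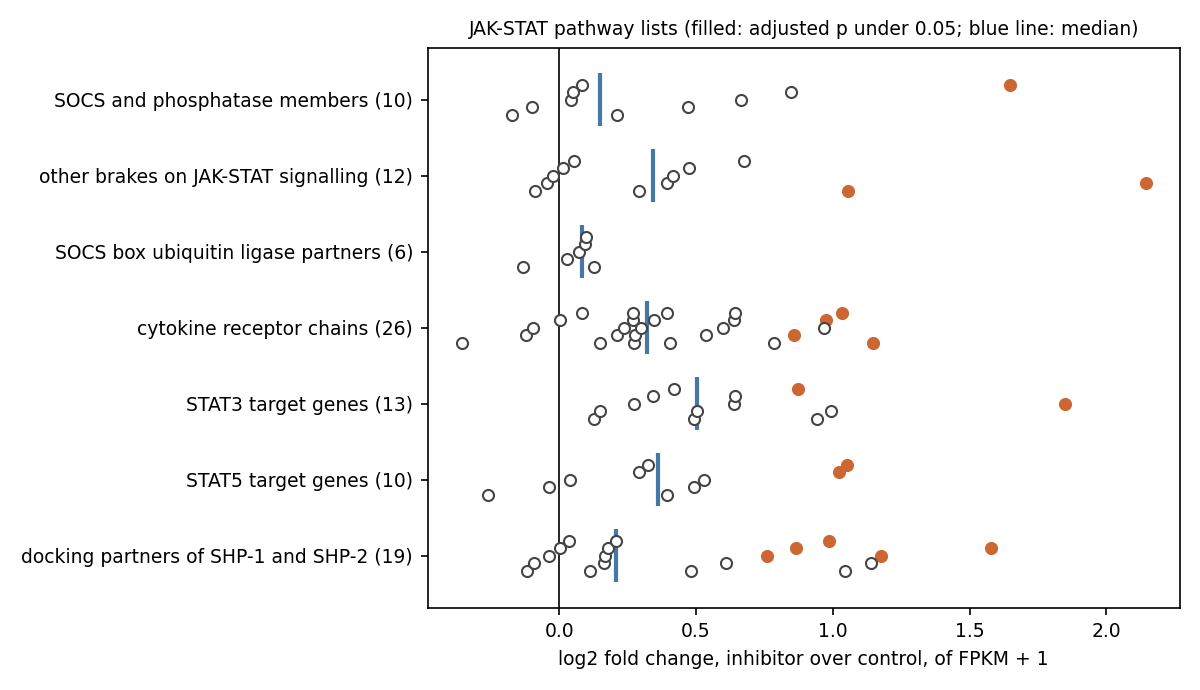
Each point is the log2 fold change of FPKM + 1 of 1 gene, inhibitor over control, in the lists named at the left with the number of genes tested. Filled points passed an adjusted p of 0.05 and blue lines are medians, which ran from 0.08 for the SOCS box partners to 0.50 for STAT3 targets.

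Fat tissue holds blood cells beside adipocytes, and in a bulk library fewer cells of a type cannot be told apart from less RNA per cell. All 8 adipocyte markers were detected, with Adipoq between 996.6 and 1303.0 FPKM. Their summed level was 17499.9 and 17940.6 FPKM in control 1 and control 2 against 14593 and 13619 in the inhibitor libraries, and 0 of 8 passed. All 6 leukocyte markers, Ptprc among them, were detected, with summed levels of 841.2 and 654.1 FPKM in the controls and 1234 and 1276 with the inhibitor, and 4 rose. Of 11 T and NK cell markers 3 rose, which were Gzma, Gzmb and Klrk1. Klrd1, Ncr1 and Nkg7 did not overlap between groups but did not pass, and Cd3d, Cd3e, Cd3g, Cd4 and Cd8a overlapped. Of 8 macrophage markers 1 rose and 1 fell. The 9 B cell and lymph node markers summed to 439.1 FPKM in control 1, 63.4 in control 2, 222.1 in inhibitor 1 and 247.3 in inhibitor 2, and 0 of 9 passed. Of the 10 genes, Cish and Ptpn11 were higher in control 2 than in control 1 and the other 8 were lower. The difference was small for Socs6, with 12.2 and 12.0 FPKM in control 1 and control 2. The same count over all genes tested was not made. Epithelial markers summed to at most 2.13 FPKM in any library, with Krt8 listed at 0 in all 4. The part of these cell types in the results for Socs1, Socs3 and Ptpn6 was not tested.

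Ratios within a library set Ptpn6 beside a general leukocyte gene. Ptpn6 over Ptprc was 0.953 in control 1 and 0.913 in control 2, and it was 0.726 and 0.693 in the inhibitor libraries. The groups did not overlap and the inhibitor ratios were lower, since the fold difference of Ptprc was larger, 2.08 against 1.57 for Ptpn6. Among the other leukocyte markers it was 2.20 for Cd53, 1.78 for Cd52 and 1.63 for Itgb2. For Coro1a and Laptm5 it was 1.46 and 1.45, smaller than for Ptpn6. The direction of such a ratio therefore depended on the leukocyte gene chosen. Ptpn6 over Ptpn11 was 1.83 and 1.22 in control 1 and control 2 against 2.43 and 2.70 in the inhibitor libraries, again without overlap and in the other direction. Socs1 over Ptprc was 0.0841 and 0.0922 in the controls and 0.161 and 0.144 with the inhibitor, so the step in Socs1 was larger than that in Ptprc. Socs1 over Socs3 was 0.295 and 0.356 in control 1 and control 2 against 0.703 and 0.565 in the inhibitor libraries. With 2 libraries a group an exact permutation test of a ratio could not pass, and none was run.

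**Figure D5:**
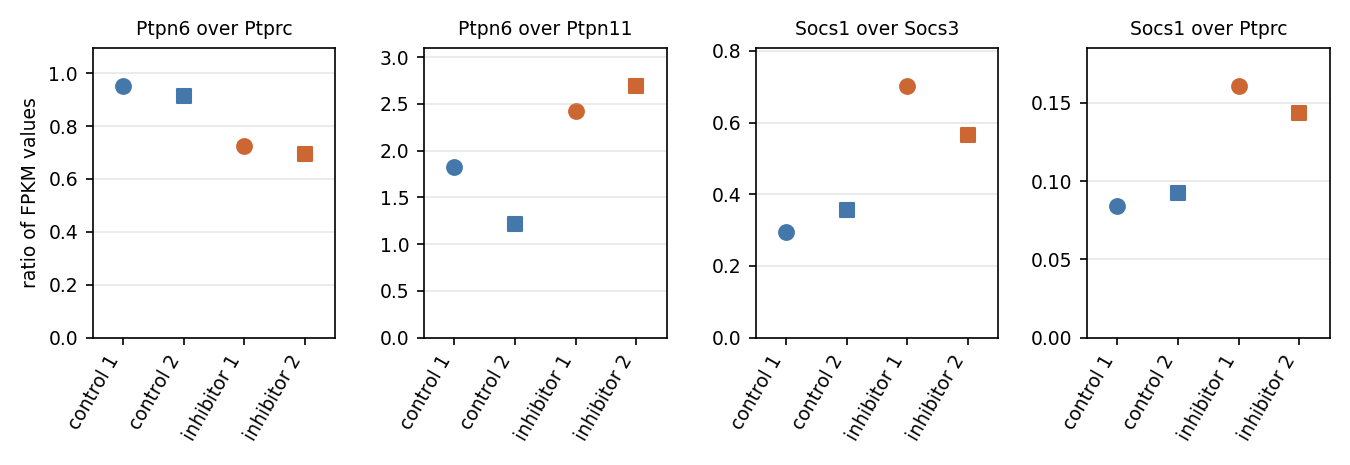
Each panel gives the ratio of 2 FPKM values in each of the 4 libraries, on an axis that starts at 0. Ptpn6 over Ptprc is lower in the inhibitor libraries (0.726 and 0.693) than in the controls, while the other 3 ratios are higher there.

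The libraries differed in their mitochondrial share, and relative depth was estimated only within a limited range. Absolute depth is unknown, since FPKM holds no read numbers. Depth relative to control 1 was read from the most common ratio of values under 0.3 FPKM. It was 1.06 for the other control and 0.933 and 0.908 for the inhibitor pools. Only ratios within a set range around equal depth were searched, so a larger difference could not have appeared. Between 15373 and 15587 rows were above 0. Mitochondrially encoded genes took 14.4% and 17.5% of summed FPKM in control 1 and control 2, and 10.2% and 12.1% in the inhibitor pools, without overlap. With values rescaled without these genes the log2 fold change of Socs1 was 1.60 (limma adjusted p = 0.0128). The 10 genes then stood at 5 higher and 2 lower, as before, beside 27.4% higher and 23.9% lower over all genes tested. With the values as deposited those shares were 33.1% and 19.1%. Across genes, which are not independent replicates, log2 values of the 2 controls differed with an SD of 0.41 and those of the 2 inhibitor libraries with an SD of 0.30.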

How the data were processed

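RNA of subcutaneous white fat was sequenced in 4 libraries, grouped by their titles. Libraries were built with a directional kit, per the labels' protocols. Values are FPKM deposited by the authors and made with Cufflinks, per the file headers. The submitters' processing notes name TopHat, the build mm10, Cufflinks 2.1.1 and TopHat2 2.0.11. Their settings, the annotation and the use of strand in counting were not given in the sources used here. All 4 value columns were used, and 0 were left out.

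The scale was log2(FPKM + 1). Groups were compared over the 12345 of 21899 rows whose mean reached 1 FPKM, using limma 3.58.1 under R 4.3.3 (eBayes, trend on). P-values are two-sided and were adjusted by Benjamini-Hochberg over all these rows, with 0.05 as the threshold. The fit had 2 residual and 5.29 total degrees of freedom. It was tested on simulated data. Members and lists were chosen with earlier results of these data known. Named genes are all members, a fixed set of pathway genes, and up to 4 genes with the smallest p per list and direction among those called. Alternatives covered pseudocount, filter, scaling, trend, a replicate block and each library left out. Coordinates are from GENCODE M21, which matched 21647 of 21849 identifiers. No protein sequences were used. A pathway item and the lists that rest on it are not reported here.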

Additional observations from a re-analysis of the deposited data

How the results depend on the processing

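Socs1 passed in each of the 9 alternatives that kept all 4 libraries and without either control, with log2 fold changes from 1.53 to 1.83, and missed the threshold without either inhibitor library. With 1 library left out, calls over all genes ran from 0 to 785, members called from 0 to 3, the members' median log2 fold change from 0.14 to 0.33, and calls over the pathway lists from 0 to 40. Calls over all genes were 132 with no filter and 226 without a trend, and calls over the pathway lists were 11 with no filter. The cause was not tested. Some genes that had not passed changed sign. With quantile normalization Socs2 was at -0.028, Socs5 at -0.062, Cish at -0.041, Stat5b at -0.090, Il6st at -0.036, Socs7 at -0.040 and Igf1 at -0.046. With upper quartile scaling these were -0.023, -0.058, -0.047, -0.091, -0.034, -0.034 and -0.077. Without the mitochondrially encoded genes Socs5 was at -0.0022, Stat5b at -0.029 and Igf1 at -0.012. With 1 library left out, Cish ran from -0.41 to 0.51, Socs2 from -0.21 to 0.38, Stat5a from -0.19 to 0.12, Stat5b from -0.026 to 0.068, Igf1 from -0.11 to 0.19, Ghr from -0.20 to 0.0054 and Socs7 from -0.070 to 0.18. The replicate numbers did not pair the pools (correlation of deviations -0.0058): with a replicate block 354 genes passed, 1 of the members and 23 on the pathway lists, with 1 in place of 2 for the other brakes and 2 in place of 4 for the receptor chains. FPKM without read numbers and 2 pools a group limit what could be detected.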
